A study of Mus musculus with 64 samples.

Results

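The polyamines putrescine, spermidine and spermine are small cations made from ornithine and S-adenosylmethionine, and 10 mouse genes of their synthesis, control and breakdown are described here. They are Odc1, Amd1, Srm, Sms, Sat1, Azin1, Oaz1, Oaz2, Smox and Paox. Each was found in the deposited expression table by its NCBI gene ID, and the 10 were among 36332 distinct IDs. The table holds 64 RNA sequencing libraries from 3 tissues (omental fat, called adipose tissue below, liver and skeletal muscle) taken from mice aged 5 or 20 months, either with Myc inactivated throughout the body (KO) or wild type (WT).

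The KO mice carried the allele Gt(ROSA)26Sortm1(cre/ERT2)Tyj, a tamoxifen-activated Cre recombinase expressed from the ROSA26 locus in most cell types, and the allele Myctm2Fwa, a Myc gene made for Cre excision, on backgrounds labelled B6.129 and B6.129S6. The strain label of the WT mice is C57/B6, so that genotype and strain background cannot be told apart in any KO against WT comparison. All 12 groups share the tamoxifen treatment, given at weaning as 5 injections of 75 mg/kg to mice of at least 15 g. For adipose tissue and for liver, the young groups had 6 libraries per genotype, and for muscle they had 4 (KO) and 6 (WT). Every old group had 5. Young and old stand for 5 and 20 months throughout, and single libraries are named by their codes in the table. The codes of the old libraries begin with K18 or W18 while their labels give 20 months, and the labels were used. The labels do not state that each library is a separate animal, and p-values here measure the spread between these libraries.

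Odc1 encodes ornithine decarboxylase, which makes putrescine and is a classic transcriptional target of Myc. Amd1 makes the aminopropyl donor that spermidine synthase (Srm) and spermine synthase (Sms) use. Antizymes (Oaz1 and Oaz2) bind ornithine decarboxylase and send it for degradation, and the antizyme inhibitor Azin1 relieves this. Sat1 acetylates spermidine and spermine for export or for oxidation by Paox, and Smox oxidises spermine directly back to spermidine. Much of this control acts on translation and protein stability, which messenger RNA levels do not show.

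The libraries held 15.4 to 28.5 M reads on genes. Adipose, liver and muscle libraries were each led by the markers of their own tissue. Hepatocyte markers summed to between 109 and 4880 CPM in adipose libraries, against at least 118000 CPM in liver, and to 3014 CPM in 1 old WT muscle library (W18S42). Markers of the epididymis summed to 6486, 4155 and 986.5 CPM in 3 young KO adipose libraries (K5F4284, K5F5248 and K5F5218), to 957.6 CPM in 1 young WT adipose library (W5F5299) and to 130.7 CPM in 1 young WT muscle library (W5S5299), and to at most 1.83 CPM in all others. Xist, which is transcribed from the inactive X chromosome of females, was at 143 to 432 CPM in 12 libraries that had no read of 4 Y-linked genes. The other 52 libraries had at least 84.9 CPM of those genes and at most 0.333 CPM of Xist. Each 5-month group of each tissue held 2 Xist libraries, and all 20-month libraries had Y-linked transcripts, so age and this difference overlap in part. The read values are called CPM after the table's header. In a bulk tissue, fewer cells of a type and less RNA per cell cannot be told apart.

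Stretches upstream of 4 members are shown because Odc1 is a known Myc target, because Amd1 and Smox were lowest in the same young muscle libraries, and because Sms was the one member whose windows held a canonical E-box (CACGTG, the site that Myc with Max binds). RefSeq's promoter table for GRCm38.p6 held windows for 8 of the 10 genes, and none for Srm or Azin1. The 250 bases before each listed start were searched for CACGTG, which reads the same on both strands, and for CACGCG on either strand, a non-canonical E-box whose matches cannot overlap those of the first. CACGTG was in 1 of the 10 member windows and in 6.02% of all 32851 windows. CACGCG or its complement was in 3 of the 10 and in 7.62% of all. Capitals mark these matches, and each sequence reads 5′ to 3′ towards the gene and stops before its first RefSeq base. The matches in Odc1 begin 180 and 101 bases before the listed start and the match in Sms 196 bases before its own. Another Sms window, not printed, held no CACGTG and 1 CACGCG or its complement, 140 bases before its own listed start. Bases after the listed starts were not searched, in Odc1 or in any other gene.
Odc1, chr12:17544623-17544807, plus strand: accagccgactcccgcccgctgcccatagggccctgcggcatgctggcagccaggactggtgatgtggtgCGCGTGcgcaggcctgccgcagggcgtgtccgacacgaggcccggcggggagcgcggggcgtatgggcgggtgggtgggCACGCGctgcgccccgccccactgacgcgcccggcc
Sms, chrX:157492288-157492537, minus strand: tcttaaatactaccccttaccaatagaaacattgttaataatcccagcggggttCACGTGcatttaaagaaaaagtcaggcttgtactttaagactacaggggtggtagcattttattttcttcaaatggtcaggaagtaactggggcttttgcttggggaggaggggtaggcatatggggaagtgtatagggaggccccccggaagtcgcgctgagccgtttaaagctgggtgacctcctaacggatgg
Amd1, chr10:40302189-40302438, minus strand: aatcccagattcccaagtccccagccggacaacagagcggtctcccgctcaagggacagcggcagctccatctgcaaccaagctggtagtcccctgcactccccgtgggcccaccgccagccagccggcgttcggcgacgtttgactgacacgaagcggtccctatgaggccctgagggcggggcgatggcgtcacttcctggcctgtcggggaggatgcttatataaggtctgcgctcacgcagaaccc
Smox, chr2:131491612-131491857, plus strand: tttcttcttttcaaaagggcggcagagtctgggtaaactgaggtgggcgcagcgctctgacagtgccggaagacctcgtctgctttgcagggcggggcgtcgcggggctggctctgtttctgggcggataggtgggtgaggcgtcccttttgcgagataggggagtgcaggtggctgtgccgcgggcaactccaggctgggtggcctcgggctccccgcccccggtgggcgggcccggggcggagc
The stretches of Amd1 and Smox held no match to either motif. This says only that these letters are not in these windows.

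Skeletal muscle stood apart from both other tissues in its polyamine genes. In young WT mice, transcripts of Smox, Sms, Amd1, Odc1 and Oaz2 were higher in muscle than in either tissue, with no overlap between libraries, and Paox was lower. The share of all genes without overlap between groups is not given here or below, so such statements have no background beside them. Smox was at 113.3 to 999.9 CPM in the 6 young WT muscle libraries (mean 459.6 ± 356.7, SD, n = 6), at 7.579 to 13.12 in adipose tissue and at 3.397 to 7.911 in liver. The mean in muscle was thus 47.99 times that in adipose tissue and 69.4 times that in liver. Differences are given on the log2(CPM + 1) scale from limma, fitted across all genes, and a gene is called at a Benjamini-Hochberg adjusted p under 0.05. On this scale Smox was lower in adipose tissue than in muscle by 5.03 (log2 difference -5.03 ± 0.326, SE; adjusted p = 1.43e-20) and differed by -5.52 between liver and muscle (adjusted p = 1.12e-22).

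Sms was at 148 to 214.9 CPM in young WT muscle, at 4.325 to 9.46 in adipose tissue and at 3.611 to 7.848 in liver. Its muscle mean was 30.1 times the adipose mean and 28.95 times the liver mean. Amd1 was at 146.2 to 1091 CPM in muscle, against 27.94 to 36.86 in adipose tissue and 37.21 to 60.03 in liver, a ratio of means of 17.8 and 13.4. Odc1 was at 377.2 to 1535 CPM in muscle, and no adipose library (51.23 to 152.8) or liver library (100.3 to 193.9) of young WT mice reached that range. Oaz2 was at 162 to 226.7 CPM in muscle, at 61.23 to 97.84 in adipose tissue and at 40.23 to 56.96 in liver, so that the 3 tissues did not overlap.

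The other members did not share this direction. Paox was lowest in muscle, at 5.603 to 10.77 CPM against 16.58 to 37.03 in adipose tissue and 17.01 to 33.06 in liver (log2 differences 1.52 and 1.42, adjusted p 4.16e-10 and 1.95e-09 by limma). Srm and Sat1 were also lower in muscle, with overlap: Srm had means of 17.01 CPM in muscle, 24.23 in adipose tissue and 36.56 in liver, and Sat1 of 42.6, 84.68 and 64.54. Oaz1 had its highest mean in liver, at 479.6 to 1013 CPM against 129.5 to 266.7 in adipose tissue and 296.4 to 556 in muscle. Its liver and muscle ranges overlapped. Azin1 had means of 96.65 CPM in liver, 76.96 in muscle and 42.7 in adipose tissue, and its liver and muscle values were not called different (log2 difference 0.43, 95% confidence interval -0.17 to 1.02).

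In all, 4 of the 10 members were called between adipose tissue and liver, 10 between adipose tissue and muscle and 9 between liver and muscle. The share of all 16240 tested genes called was 71.7%, 70.4% and 72.3%, above the members' 4 of 10 in the first contrast and below their 10 and 9 of 10 in the others. The members' median log2 difference was -0.23, -1.13 and -0.82, against 0.10, 0.18 and -0.03 over all tested genes. These contrasts depend on how libraries are scaled between tissues: the deposited columns summed to 0.529 to 0.753 M in adipose tissue, at least 1.18 M in liver and 1.08 to 1.32 M in muscle. With reads scaled to the library total instead, the median over all genes between adipose tissue and liver moved from 0.10 to 0.90. Then 8 members were called there, beside 82.6% of all 16678 genes. Srm, Odc1 and Sms were then higher in adipose tissue than in liver (0.59, 0.73 and 0.89) where the deposited scaling put them at -0.52, -0.40 and -0.08. The excess of Smox, Sms, Amd1, Odc1 and Oaz2 in muscle was called under both scalings, with differences between adipose tissue and muscle of -4.21, -3.96, -2.88, -1.95 and -0.46 under the second. Under that scaling Azin1 and Oaz1 lost their call between adipose tissue and muscle (adjusted p = 0.684 and 0.721 by limma), where 77.8% of all genes were called. Sat1 lost its call between liver and muscle (adjusted p = 0.112), where 67.7% of all genes were called.

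Per kilobase of exon, the order of the members within a tissue also differed. In young WT muscle the highest mean was that of Odc1 (236.4 CPM per kb), followed by Oaz1 (170.4), Amd1 (161.7) and Smox (118), and the lowest was that of Paox (1.587). In liver Oaz1 led with 274.4 CPM per kb, followed by Odc1 with 38.95, and Sms (1.059) was lowest. In adipose tissue Oaz1 led with 88.51 CPM per kb, then Sat1 with 30.53 and Odc1 with 30.3. Oaz1 thus exceeded Odc1 in mean level per length in adipose tissue and liver, and the mean of Odc1 exceeded that of Oaz1 in young WT muscle. That last order did not hold in each library. In the 2 Xist libraries of young WT muscle, W5S5041 and W5S5042, Odc1 was at 377.2 and 458.8 CPM. Oaz1, which has the shorter exon length, was at 556 and 542.6 CPM there. In the other 3 muscle groups Oaz1 was the higher one, at 181.5 against 167.6 CPM per kb in young KO, 165.6 against 155.2 in old KO and 208.5 against 130.9 in old WT muscle.

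**Figure D1:**
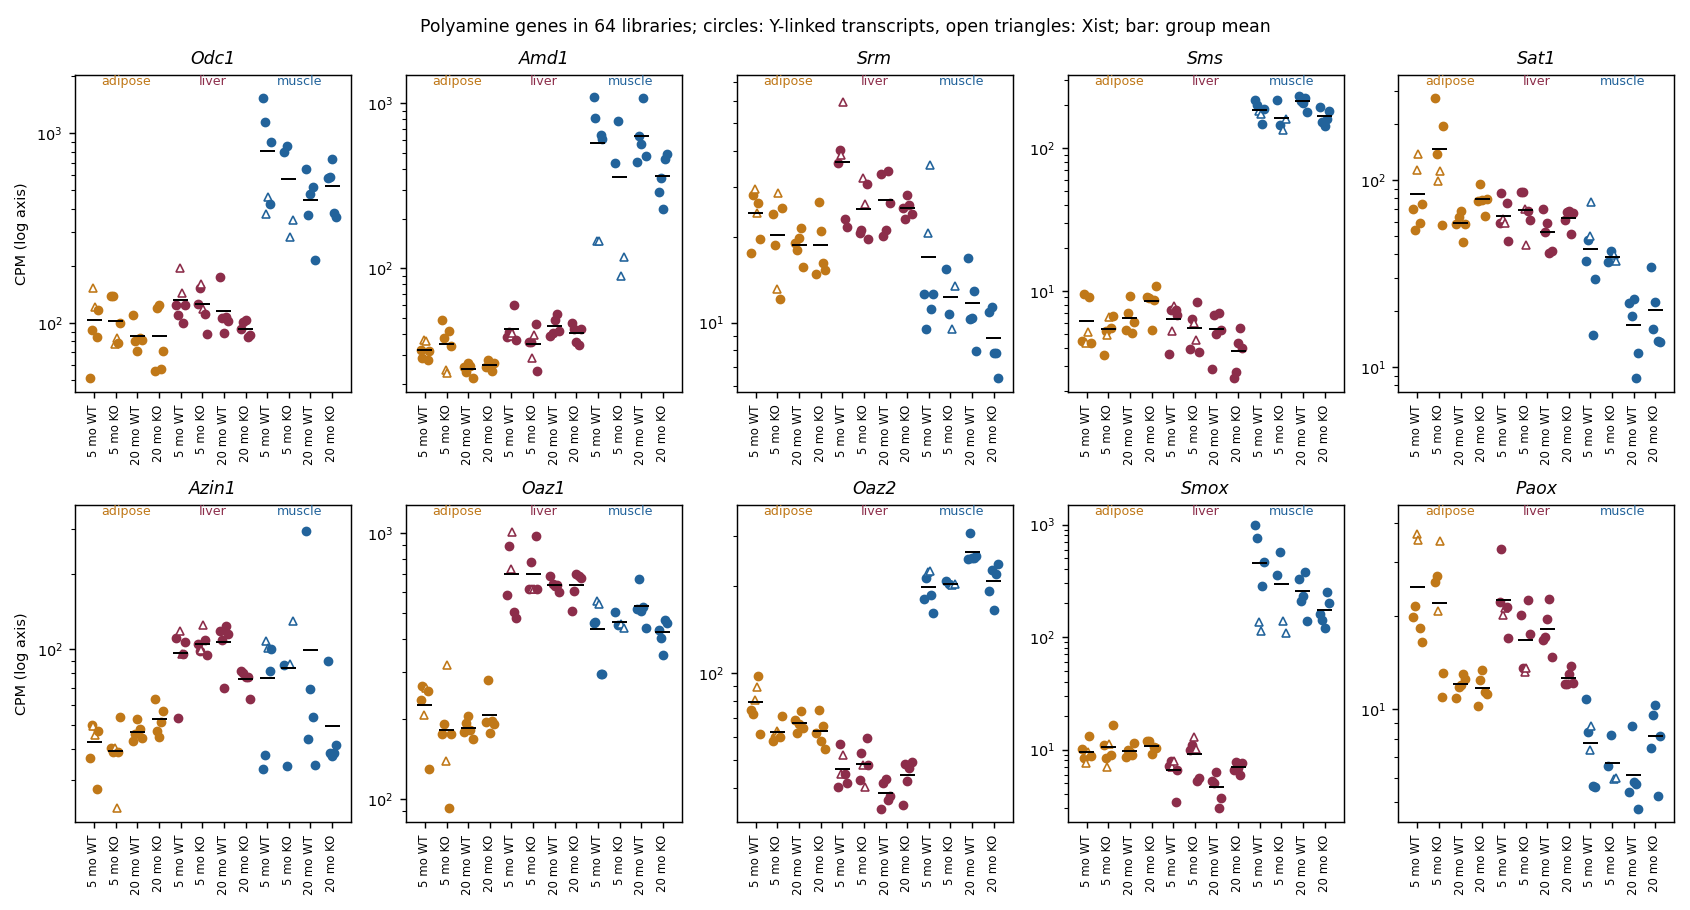
CPM of each of the 10 genes (log axis) in the 64 libraries by tissue, age and genotype. Filled circles are libraries with Y-linked transcripts, open triangles libraries with Xist and bars group means. Smox, Sms, Amd1, Odc1 and Oaz2 lie higher in muscle than in adipose tissue and liver, and the open triangles of Amd1 and Smox lie under the other young muscle libraries.

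Myc itself was lower in young KO than in young WT libraries of adipose tissue (5.756 ± 2.913 against 17.65 ± 5.106 CPM, mean ± SD, n = 6 each) and liver (2.59 ± 1.061 against 19.61 ± 10.27), without overlap. In muscle its ranges overlapped at 5 months (4.998 to 17.14 CPM in 4 KO against 6.145 to 81.31 in 6 WT libraries) and at 20 months (1.746 to 10.18 against 4.97 to 13.12). At 20 months the liver groups did not overlap (KO mean 2.11, WT 5.867 CPM) and the adipose groups did (7.362 and 11.97). By limma Myc was called between KO and WT in young adipose tissue (-1.52, adjusted p = 0.017) and young liver (-2.38, adjusted p = 0.00093). It was not called in young muscle or in any tissue at 20 months. With age Myc fell in WT liver (-1.40, adjusted p = 0.0108 by limma) and WT muscle (-1.41, adjusted p = 0.0492). The highest young WT muscle values, 33.74 and 81.31 CPM, were those of Xist libraries.

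Odc1 showed no called difference between KO and WT in any tissue at either age. In young adipose tissue the 6 KO libraries held 77.17, 78.35, 83.37, 99.65, 137.9 and 138.9 CPM, and the 6 WT libraries ranged from 51.23 to 152.8 with a mean of 103.2, so the KO values lay within the WT range. The difference was 0.02 on the log2 scale, with a 95% confidence interval of -0.49 to 0.54. In young liver the KO libraries ranged from 87.75 to 160.6 CPM and the WT libraries from 100.3 to 193.9, a difference of -0.07 (-0.42 to 0.28). The ranges in liver overlapped, although Myc did not.

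In young muscle the 4 KO libraries held 282.6, 347.7, 791.7 and 860.2 CPM of Odc1, and the 6 WT libraries 377.2, 422.3, 458.8, 893.2, 1142 and 1535. The difference of -0.45 had a wide interval (-1.31 to 0.40). The 2 lowest KO values were those of the 2 Xist libraries of that group, and with Y-linked libraries alone the difference was -0.13 (-1.09 to 0.84). At 20 months the difference was -0.07 (-0.64 to 0.50) for adipose tissue, -0.27 (-0.65 to 0.11) for liver and 0.29 (-0.55 to 1.13) for muscle. Two-sided exact permutation tests of Odc1 gave p = 0.937 for young adipose tissue, 0.727 for young liver and 0.429 for young muscle, where the smallest p the designs allow is 0.00216, 0.00216 and 0.00476. At 20 months the exact permutation p was 0.841, 0.0952 and 0.444, and after adjustment over the 12 Odc1 tests the lowest of these 6 was 0.554.

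Over its 12 groups, mean Odc1 ran from 804.8 ± 469.9 CPM in young WT muscle, through 570.5 in young KO, 528.4 in old KO and 445.6 in old WT muscle, to the liver and adipose groups. Those lay close together: 132.6 in young WT, 126.1 in young KO and 116 in old WT liver, 103.2 in young WT and 102.6 in young KO adipose tissue, 93.39 in old KO liver, and 85.48 and 85.39 in old KO and old WT adipose tissue. Neighbours in this order overlapped in their libraries, except at the step from muscle to liver.

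None of the other 9 members was called between KO and WT either. The count was 0 of 10 in each of the 6 comparisons by limma, and also 0 by edgeR and by DESeq2. The share of all genes called was 0.105% in young and 0% in old adipose tissue, 0.0696% and 0.0232% in liver, and 0% and 0.0302% in muscle, so few genes of any kind were called. At an unadjusted p under 0.05 there were 2, 0, 2, 3, 0 and 2 members in the same order. The share of all genes under that unadjusted threshold is not given here or below, so such counts have no background beside them. The members' median difference was -0.12 and 0.10 in adipose tissue, -0.01 and -0.10 in liver, and -0.18 and -0.34 in muscle, against -0.04, 0.01, 0.01, 0.01, 0.01 and -0.03 over all genes. The change of the KO effect with age was called for 0 of 10 members in each tissue, with 1 member at an unadjusted p under 0.05 in liver (Azin1) and in muscle (Oaz2) and none in adipose tissue, and for 0% of all genes in each tissue.

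Among the synthesis enzymes, Srm in young liver was at 19.62 to 32.18 CPM in KO and 21.62 to 59.26 in WT libraries (-0.47, 95% confidence interval -0.88 to -0.06, adjusted p = 0.623 by limma). Amd1 in muscle had the largest difference in size, -0.84 at 5 months (-2.08 to 0.39) and -0.78 at 20 months (-1.99 to 0.43), with intervals on both sides of 0. The young muscle groups held 2 Xist libraries each, of 4 KO and of 6 WT, and with Y-linked libraries alone the young value of Amd1 was -0.40 (-1.17 to 0.38). Sms in old muscle was at 142.7 to 192.4 CPM in KO and 179.7 to 232.2 in WT libraries (-0.35, adjusted p = 0.303). These ranges overlapped.

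Of the regulators, Oaz2 in old muscle did not overlap between genotypes: the KO libraries held 165.2, 192.9, 220.6, 227.7 and 238.6 CPM and the WT libraries 249.1, 250.5, 251.6, 254.9 and 307. It was still not called (-0.34 ± 0.109, SE; adjusted p = 0.295 by limma, with 0.0302% of all genes called). Azin1 in old liver was at 63.24 to 81.48 CPM in KO libraries and at 69.89 to 123.2 in WT libraries, where 4 of the 5 WT libraries were above all KO libraries (-0.47, adjusted p = 0.753).

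Of the catabolic enzymes, Paox in old liver did not overlap either, at 12.11, 12.12, 12.17, 12.99 and 13.86 CPM in KO and 14.79, 16.78, 17.21, 19.65 and 22.79 in WT libraries (-0.48 ± 0.163, SE; adjusted p = 0.750). In young liver its difference had the same sign, -0.41, with overlap (13.21 to 22.56 in KO, 17.01 to 33.06 in WT). Smox in old liver was at 5.931 to 7.818 CPM in KO and 3.018 to 6.364 in WT libraries (0.51, adjusted p = 0.818). Sat1 in young adipose tissue was at 57.4 to 275.4 CPM in KO and 54.19 to 137.7 in WT libraries (0.69, adjusted p = 0.360). Its highest values, 275.4 and 194.8, were those of the KO libraries with 6486 and 4155 CPM of epididymis markers. Without the 4 adipose libraries that had those markers the difference was 0.50 (adjusted p = 0.398). Among libraries with Y-linked transcripts alone the Sat1 difference was 1.16 and was called (adjusted p = 0.0498 by limma), where 534 of 14511 genes (3.68%) were called against 15 with all libraries. In that subset 3 of the 4 KO libraries and 1 of the 4 WT libraries had epididymis markers.

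The KO effects at 5 months were also compared between tissues. None of the 10 members was called in any pair of tissues, with 1, 1 and 0 at an unadjusted p under 0.05 and 0 by edgeR and DESeq2, where 0.216% of all genes were called between adipose tissue and liver, 0% between adipose tissue and muscle and 0% between liver and muscle.

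**Figure D2:**
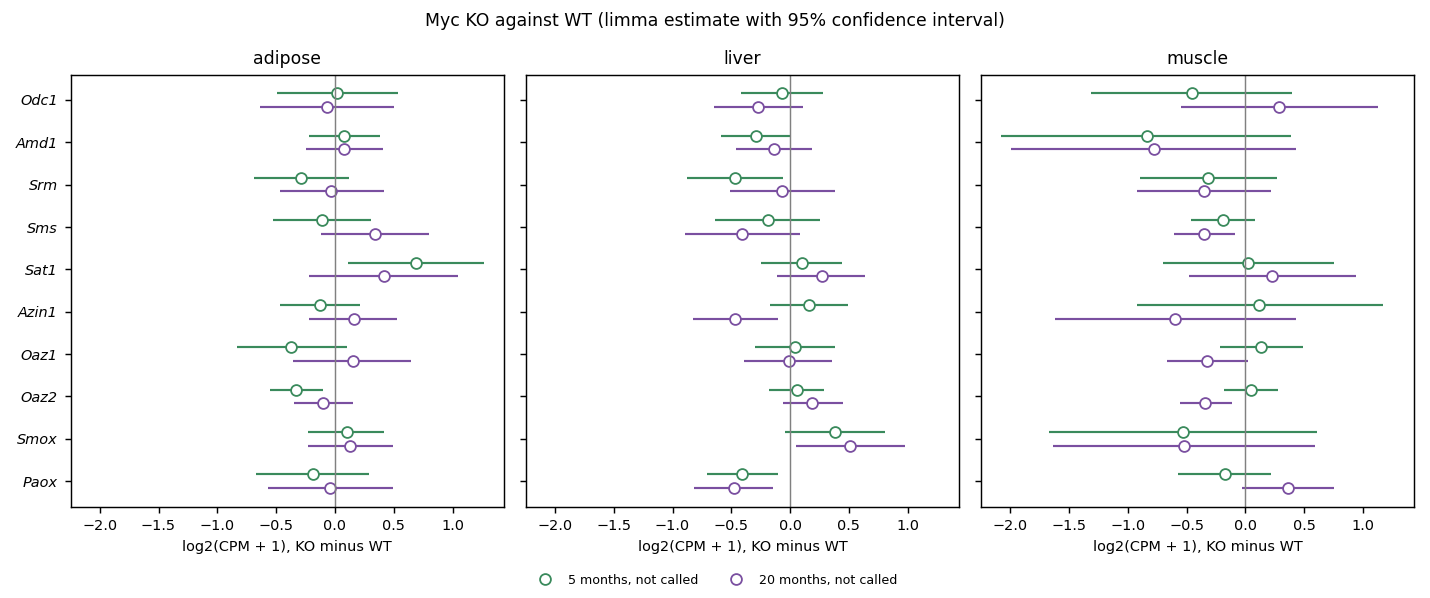
Log2 difference, KO minus WT, of the 10 genes at 5 and 20 months in each tissue, with 95% confidence intervals from limma. All points are open, since none was called, and the widest intervals are those of Amd1, Smox, Azin1 and Odc1 in muscle.

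With age, Paox fell in adipose tissue of both genotypes. In WT the 5 old libraries held 10.92, 11.85, 12, 12.53 and 12.99 CPM of Paox and the 6 young ones 16.58, 18.34, 19.95, 21.59, 35.45 and 37.03. All old libraries were below all young ones, and the 2 highest, W5F5042 and W5F5041, were the 2 Xist libraries of the group. The difference was -0.92 ± 0.243 (SE; adjusted p = 0.0215 by limma), and it remained below 0 with a term for Xist libraries (-0.67, adjusted p = 0.0487) and among libraries with Y-linked transcripts alone (-0.62, adjusted p = 0.0840). In KO the old libraries were at 10.23 to 13.45 CPM and the young ones at 10.93 to 35.19, so that the ranges overlapped (-0.76 ± 0.243, SE; adjusted p = 0.0411). The KO difference was not called with the Xist term (-0.52, adjusted p = 0.0859) or with Y-linked libraries alone (-0.57, adjusted p = 0.0523). The WT call was lost when any of 3 libraries (old W18F22, young W5F5041 and W5F5042) was left out, with adjusted p values over single omissions from 0.0089 to 0.0583. The KO call was lost in 12 of 22 such fits.

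Paox was the member called in each adipose ageing comparison, 1 of 10 in WT and 1 of 10 in KO, where 10.8% and 14.2% of all genes were called. The members' median difference was -0.24 and -0.04, against 0.01 and 0.06 over all genes. Amd1 also did not overlap between ages in WT, at 21.8 to 26.87 CPM in old and 27.94 to 36.86 in young libraries, but was not called (-0.37, adjusted p = 0.112). In KO the Amd1 difference was -0.37 and that of Sat1 -0.72, neither called by limma (adjusted p = 0.102 and 0.0975). Both were called by edgeR (adjusted p = 0.0383 and 0.0371) and DESeq2 (0.0124 and 0.0107). Without the libraries with epididymis markers the KO values were -0.09 for Amd1 and -0.55 for Sat1 (adjusted p = 0.669 and 0.119). The adipocyte markers summed to 24000 to 41000 CPM in young WT and 14800 to 21400 in old WT adipose libraries, and the part of this in the members' levels was not tested.

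In liver no member was called with age, 0 of 10 in WT and in KO by limma, edgeR and DESeq2, where 7.19% and 2.99% of all genes were called, with 1 and 3 members at an unadjusted p under 0.05. In WT 8 and in KO 8 of the 10 differences were below 0, with medians of -0.24 and -0.21 against -0.01 and -0.02 over all genes. With library totals as the scale, the median over all genes moved to 0.17 and 0.15. Azin1 of KO livers did not overlap between ages, at 63.24 to 81.48 CPM in old and 94.6 to 125.3 in young libraries (-0.46, adjusted p = 0.131). Odc1 of KO livers was at 84.26 to 103 CPM in old and 87.75 to 160.6 in young libraries (-0.40, adjusted p = 0.214; exact permutation p = 0.026, or 0.312 after adjustment over the 12 tests).

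In WT muscle Sat1 fell and Oaz2 rose with age, 2 of 10 members, where 18.6% of all genes were called. Sat1 was at 8.75, 11.93, 18.67, 22.05 and 23.09 CPM in the old libraries and at 14.78, 29.47, 36.88, 47.67, 50.41 and 76.37 in the young ones. The ranges overlapped in 1 young library (W5S5277), and the 2 highest values were those of the 2 Xist libraries. The difference was -1.21 ± 0.326 (SE; adjusted p = 0.0175 by limma), a mean of 16.9 against 42.6 CPM. It was -0.86 and not called among libraries with Y-linked transcripts alone (adjusted p = 0.126), and without old library W18S66 it was -1.01 (adjusted p = 0.0592). Macrophage markers summed to a median of 136 CPM in young and 50.7 CPM in old WT muscle, and their part in the Sat1 level was not tested. In KO muscle Sat1 was at 13.69 to 34.46 CPM in old and 36.6 to 41.78 in young libraries, without overlap and without a call (-1.0, adjusted p = 0.0995).

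Oaz2 was at 249.1 to 307 CPM in old and 162 to 226.7 in young WT muscle, without overlap (0.40 ± 0.105, SE; adjusted p = 0.0144 by limma). The highest old library, W18S42, was the one with hepatocyte markers, and without it the difference was 0.35 (adjusted p = 0.0494). It kept its call when any single one of the 20 muscle libraries was omitted (adjusted p from 0.00887 to 0.0494), with a term for Xist libraries (0.46) and with Y-linked libraries alone (0.50, adjusted p = 0.0262). In KO muscle the old (165.2 to 238.6 CPM) and young (201.7 to 208.5) libraries overlapped, and the difference was 0.02 (95% confidence interval -0.22 to 0.26). The difference between these ageing effects was the change of the KO effect with age, -0.39 for Oaz2, which was not called (adjusted p = 0.999). In KO muscle 0 of 10 members were called with age by limma, edgeR and DESeq2, against 5.57% of all genes, with 1 at an unadjusted p under 0.05. The members' medians were -0.14 in WT and -0.07 in KO muscle, against 0.03 and -0.02 over all genes.

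The rise of Oaz2 with age differed between tissues. Its WT ageing difference was 0.40 in muscle, against -0.22 for adipose tissue and -0.27 for liver. The difference between adipose tissue and muscle was -0.63 ± 0.153 (SE; adjusted p = 0.0043 by limma) and that between liver and muscle -0.67 ± 0.153 (adjusted p = 0.00606). The second was -0.53 and not called with library totals as the scale (adjusted p = 0.0657). It was the only member called in these comparisons: 0 of 10 were called between adipose tissue and liver (6.15% of all genes, 1 member at an unadjusted p under 0.05, 0 by edgeR and DESeq2), 1 of 10 between adipose tissue and muscle (14.7%) and 1 of 10 between liver and muscle (3.51%).

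**Figure D3:**
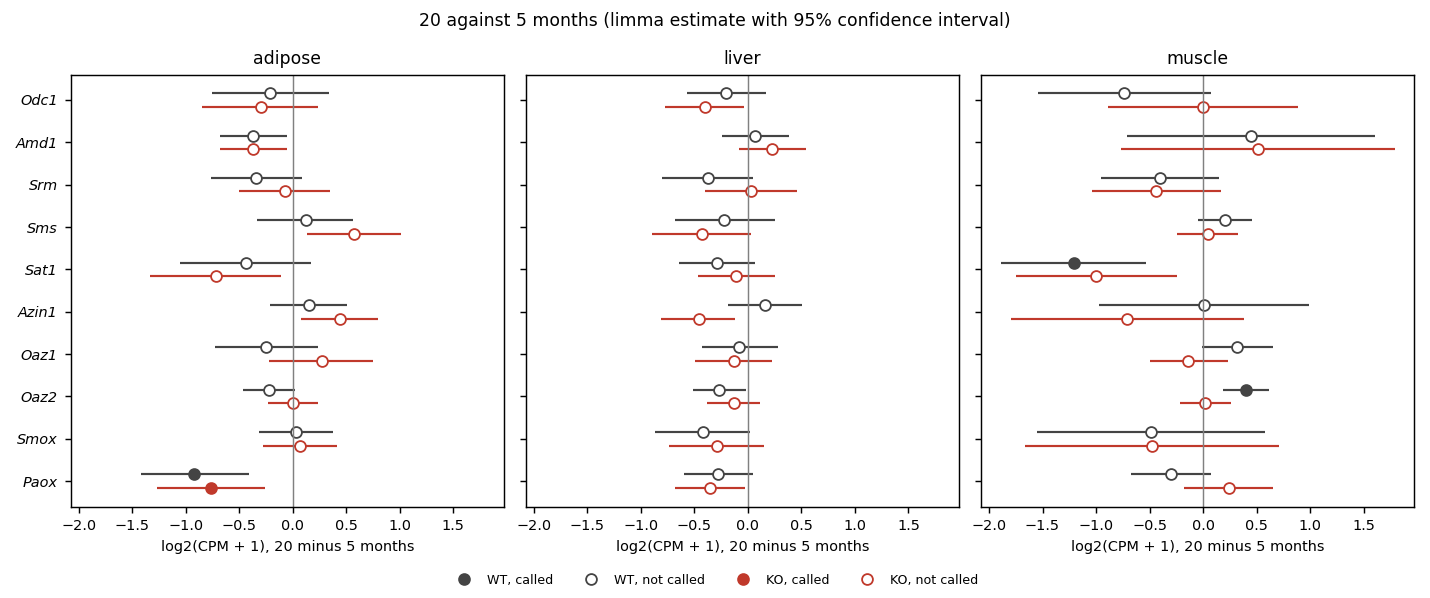
Log2 difference, 20 minus 5 months, of the 10 genes in WT and KO mice of each tissue, with 95% confidence intervals from limma. Filled points passed the test: Paox in adipose tissue of both genotypes, and Sat1 (lower) and Oaz2 (higher) in WT muscle.

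The spread of Amd1 and Smox in young muscle followed the Xist libraries. Amd1 was at 90.66, 117.6, 146.2 and 146.5 CPM in the 4 Xist libraries of muscle and at 433.9, 608, 637.3, 777.6, 808.3 and 1091 in the 6 young libraries with Y-linked transcripts. These ranges did not overlap, and their means of 125.2 and 726 CPM differed 5.80-fold. The old libraries, all with Y-linked transcripts, were at 230.2 to 1074 CPM, so that no Y-linked library of either age reached down to the Xist libraries. A term for Xist libraries, fitted beside the 4 group means in limma, was -2.42 ± 0.256 (SE; adjusted p = 1.74e-05). These are samples told apart by their own transcripts, not groups of the study.

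Smox was at 109.7, 113.3, 136.1 and 138.4 CPM in the Xist libraries and at 287, 354.1, 462.1, 571.5, 759.3 and 999.9 in the young Y-linked ones, a 4.602-fold difference of means. The Xist term was -2.04 ± 0.315 (SE; adjusted p = 0.00158 by limma). Old Y-linked libraries went down to 121.6 CPM of Smox, within the range of the Xist libraries. Odc1 was at 282.6 to 458.8 CPM in the Xist libraries and at 422.3 to 1535 in the young Y-linked ones, which overlapped in 1 library (young WT library W5S5277), and its term missed the threshold (-1.23 ± 0.317, SE; adjusted p = 0.0509). All 4 Xist libraries were below all 6 young Y-linked ones for Amd1 and Smox in KO and in WT alike.

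The share of genes called for the Xist term was 1.82% in muscle, 7.6% in adipose tissue and 3.54% in liver. Of the 10 members 2 were called in muscle, 1 in adipose tissue and 0 in liver. The member called in adipose tissue was Paox, higher in the 4 Xist libraries (20.85 to 37.03 CPM) than in the 8 young Y-linked ones (10.93 to 27.02), with overlap (0.74 ± 0.191, SE; adjusted p = 0.0248 by limma). In adipose tissue and liver the Xist term of Amd1 was -0.23 and -0.08, and that of Smox -0.23 and 0.41, none of them called. In young muscle, the Xist libraries also had a higher mean of Myc, 35 against 12.56 CPM, with overlap and without a call (adjusted p = 0.120 by limma). Those libraries held 7.798 and 17.14 CPM of Myc in KO and 33.74 and 81.31 in WT muscle. The highest, W5S5042, stood apart from its own group.

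Since all old muscle libraries had Y-linked transcripts, the ageing values of these genes moved with the Xist term. In WT muscle the difference of Smox with age was -0.49 without the term (adjusted p = 0.527 by limma) and -1.17 with it (adjusted p = 0.0202). That of Odc1 moved from -0.74 (adjusted p = 0.180) to -1.15 (adjusted p = 0.0222). Among libraries with Y-linked transcripts alone the values were -1.21 for Smox and -1.11 for Odc1, neither called (adjusted p = 0.0502 and 0.0663). Old WT libraries held 215.2, 369.4, 478, 517.8 and 647.7 CPM of Odc1, and the 4 young Y-linked WT libraries 422.3, 893.2, 1142 and 1535. In KO muscle the Smox difference was -0.48 without and -1.50 with the term (adjusted p = 0.0445). With the term, 4 of 10 members were called with age in WT muscle and 1 of 10 in KO muscle, in place of 2 and 0. The share of all genes called with the term was 14.9% in WT and 1.37% in KO muscle.

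**Figure D4:**
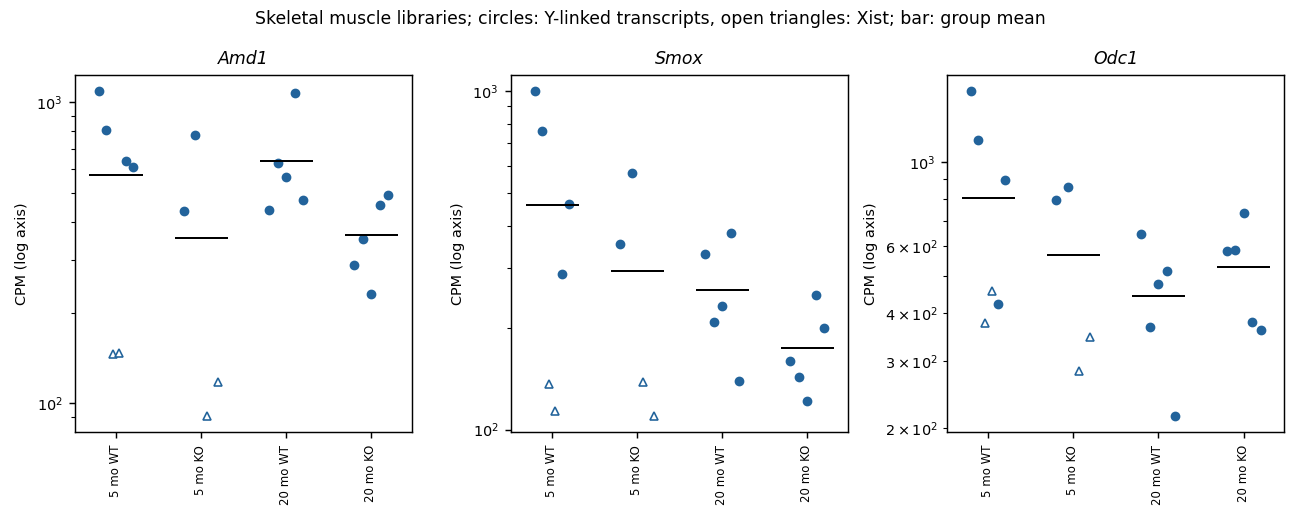
CPM (log axis) of Amd1, Smox and Odc1 in the muscle libraries by age and genotype. Open triangles are the 4 Xist libraries, filled circles those with Y-linked transcripts, and bars group means. The triangles lie under every young circle for Amd1 and Smox, and for Odc1 under all but 1 (422.3 CPM).

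Among the 16 muscle libraries with Y-linked transcripts, 3 relations between these genes were examined after their values had been seen, as deviations from group means of log2(CPM + 1). Smox and Amd1 varied together (Pearson r = 0.708, permutation p = 0.00609, adjusted p = 0.0183; Spearman rho = 0.682, adjusted p = 0.0303), and without the 2 libraries with the most distant Amd1 the r was 0.561. Smox and Odc1 had r = 0.604 (adjusted p = 0.0778; rho = 0.512), which fell to 0.0721 without the 2 libraries with the most distant Odc1, so that relation rests on them. Amd1 and Odc1 had r = 0.0775 (adjusted p = 0.792; rho = 0.0235), and r was -0.288 without 2 libraries.

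Reads of Amd2, a near copy of Amd1, made up 0.769 to 2.2% of the sum of both genes in muscle, and up to 1.47% in adipose tissue and 2.53% in liver. How reads that fit both were assigned is not given in the sources used here, so the Amd1 values carry that uncertainty.

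Odc1 was then set against Myc over the libraries of each tissue, as deviations from group means. In liver they varied together over 22 libraries (r = 0.558, permutation p = 0.012, adjusted over 3 tissues p = 0.0361; rho = 0.722, adjusted p = 0.00159). Without the 2 libraries with the most distant Myc the r was 0.611, and among the 18 libraries with Y-linked transcripts it was 0.546. In adipose tissue r was 0.418 over 22 libraries (adjusted p = 0.0988; rho = 0.300) and 0.308 without the 2 most distant. In muscle r was 0.0155 over all 20 libraries (adjusted p = 0.957; rho = -0.0752). The 4 Xist libraries there all lay under their group means of Odc1, and over the 16 Y-linked libraries alone r was 0.677 (unadjusted permutation p = 0.00765; rho = 0.621), or 0.488 without the 2 most distant.

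**Figure D5:**
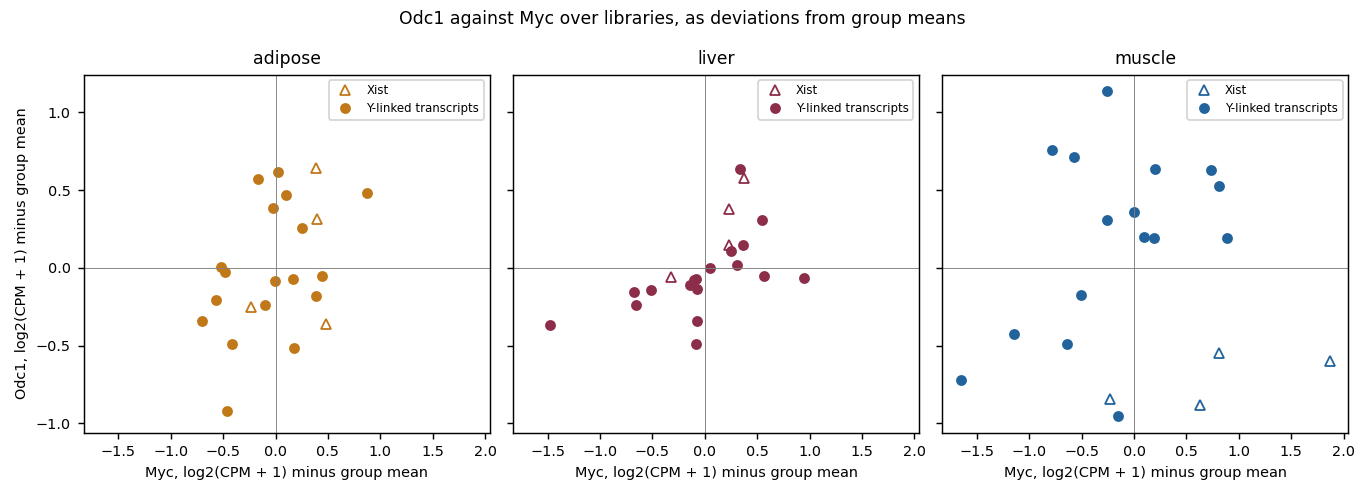
Odc1 against Myc in each tissue, both as log2(CPM + 1) minus the mean of the library's group. Open triangles are Xist libraries and circles those with Y-linked transcripts. The liver points run from lower left to upper right (r = 0.558), and the 4 muscle triangles all lie below 0 for Odc1.

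The genes whose levels followed Odc1 most closely over libraries differed by tissue. Genes whose mean level reached 5 CPM were ranked. In adipose tissue, out of 10778, the closest were Cyren, Mettl1 and Riok2 (r = 0.872, 0.866 and 0.855, n = 22). In liver they were Vdac2, Cycs and Pex14 (r = 0.897, 0.892 and 0.879, n = 22, of 9861 genes). In muscle they were Supt3, Tfcp2l1 and Npnt (r = 0.938, 0.905 and 0.891, n = 20, of 9757 genes). These were the highest of many, and in muscle the libraries included the Xist cluster. By the same measure Smox ranked 37 in muscle (r = 0.787) and Amd1 236 (r = 0.644), while Smox ranked 1094 in liver and 7171 in adipose tissue. Myc ranked 783 in liver.

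Single libraries stood apart for Azin1. In old WT muscle, W18S41 held 295.5 CPM of Azin1 and the other 4 libraries 34.51, 43.76, 53.65 and 69.63. In old KO muscle, K18S48 held 90.04 CPM and the other 4 libraries 37.44 to 41.44. Over all 20 muscle libraries the highest Azin1 value was 8.90 times the lowest, against 1.89 times for Oaz2 and 1.74 times for Sms. Oaz1 spanned 2.27-fold in muscle, 2.11-fold in liver and 3.47-fold in adipose tissue, where young KO library K5F5118 was highest (320.3 CPM) and young KO library K5F5218 lowest (92.27).

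A further 25 genes of polyamine, arginine and methionine metabolism, hypusine formation and polyamine transport were examined by count. Of those tested (20 in adipose tissue and liver, 21 in muscle), 0 were called between KO and WT in each of the 6 comparisons by limma and by edgeR, and 1 by DESeq2 in young adipose tissue, with 1, 0, 1, 0, 1 and 4 at an unadjusted p under 0.05. The change of the KO effect with age was likewise not called (0 in each tissue by all of these tools, with 0, 1 and 1 at an unadjusted p under 0.05). Nor were the KO effects between tissues (0 of 24 in each pair by all of these tools, with 3, 3 and 0). Between KO and WT, limma called at most 0.105% of all genes, edgeR at most 0.063% and DESeq2 at most 2.13%, each in young adipose tissue. For the change with age limma called 0% of all genes in each tissue. For the KO effects between tissues it called 0.216%, 0% and 0%.

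With age, 2 of 20 rose in WT adipose tissue and 4 of 20 in KO adipose tissue, and none fell, where 10.8% and 14.2% of all genes were called. Atp13a3, a polyamine transporting ATPase, rose in both (0.88 and 0.64), as did Eif5a2, whose protein carries the spermidine-derived hypusine (0.59 and 0.83). In KO adipose tissue the lysosomal polyamine exporter Atp13a2 (0.99) and the vesicular polyamine transporter Slc18b1 (0.69) rose as well. In WT liver 1 of 20 fell, Arg1, the arginase that makes ornithine (-0.96, adjusted p = 0.0351 by limma), beside 7.19% of all genes called. In KO liver 0 of 20 were called (6 at an unadjusted p under 0.05, 0 by edgeR and DESeq2), beside 2.99% of all genes. In WT muscle 4 of 21 rose and 2 fell, where 18.6% of all genes were called. Slc3a2, the heavy chain of amino acid transporters, fell (-0.79), and Adi1 and Mat2b, of methionine salvage and S-adenosylmethionine synthesis, and Atp13a3 rose (0.57, 0.44 and 0.37). In KO muscle 1 of 21 was called, Atp13a3 (0.57), beside 5.57% of all genes.

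Between tissues of young WT mice, 16, 14 and 18 of 24 tested genes of this list were called for adipose tissue against liver, adipose tissue against muscle and liver against muscle, beside 71.7%, 70.4% and 72.3% of all genes. The largest differences were the excess in liver of Mat1a, Arg1, Agmat and Oat, which make S-adenosylmethionine, ornithine, putrescine and glutamate semialdehyde (13.16, 10.98, 7.48 and 2.69 over muscle; -12.31, -9.13, -7.40 and -3.71 in adipose tissue against liver). Adipose tissue exceeded muscle in Slc18b1 (3.08), the antizyme inhibitor Azin2 (2.30) and Slc3a2 (1.41), and muscle exceeded adipose tissue in Adi1 (-1.51). WT ageing differed between adipose tissue and liver for 1 of 24 genes (Apip, of methionine salvage, -0.87), beside 6.15% of all genes. Between adipose tissue and muscle it differed for 3 of 24, among them Atp13a2 (1.0) and Apip (-0.88), beside 14.7% of all genes. Between liver and muscle it differed for 0 of 24 by limma (2 at an unadjusted p under 0.05, 1 each by edgeR and DESeq2), beside 3.51% of all genes.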

How the data were processed

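RNA of 64 libraries (3 tissues, 2 ages, 2 genotypes) was analysed from 1 deposited table of 36333 entries (36332 gene IDs). Its values are called CPM per the file headers, but the columns do not sum to the same total, so they are treated as a normalised signal made by the authors before deposit. Divided by what 1 read is worth in its column, 100% of the values were whole within a set tolerance. It was 0.01 for small counts and widened in proportion to larger ones, so the largest values passed by construction. The rounded values give 15.4 to 28.5 M reads per library and allowed count tests as alternatives. The builds GRCm38.p6 and mm10 are named in the submitters' processing notes. The aligner, the annotation release and the strand setting of the counting are not given in the sources used here. Symbols were found for 35336 IDs, and IDs without one held 0.155% of reads.

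From these values log2(CPM + 1) was computed and fitted with limma 3.58.1 in R 4.3.3, 1 mean per group, with a trend in the variance and Benjamini-Hochberg adjustment over all tested genes. Each tissue had 1 model, and comparisons between tissues used 1 model of all 12 groups. A gene was tested where the number of libraries above 1 CPM was at least that of the smallest group, and all 10 members passed in every fit. Alternatives were library-total scaling, a pseudocount of 0.1, no filter, edgeR 4.0.16, DESeq2 1.42.0, a term for Xist libraries, Y-linked libraries alone, omission of libraries with epididymis markers or of each library, and the replicate number as a block. Correlations used 100000 permutations within groups (scipy 1.17.1). The fits were tested on simulated data.

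The 10 members and Myc are named, up to 4 called genes of the further list with the largest change and a mean of at least 5 CPM in each comparison, and the 3 genes most like Odc1 in each tissue. Members and lists were chosen with earlier results of these data known.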

Additional observations from a re-analysis of the deposited data

Results flagged for a closer look

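In each group the highest or lowest library was compared with the rest by Dixon's test at its 95% critical value, for the 10 members and Myc. Of 132 such groups 14 held a library that stood apart, and chance gives about 1 in 20 groups. All values are in CPM. Odc1 was at 175 in old WT liver W18L01 (others 88.6 to 107), and Myc was at 7.61 in the same library (others 5.36 to 5.47). Myc was at 81.3 in young WT muscle W5S5042 (others 6.15 to 33.7).

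Azin1 stood apart in 5 groups: it was at 63.2 in old KO liver K18L10 (others 77.2 to 81.5), at 69.9 in old WT liver W18L03 (others 108 to 123), and at 53.0 in young WT liver W5L5005 (others 95.4 to 118). It was at 90 in old KO muscle K18S48 (others 37.4 to 41.4) and at 296 in old WT muscle W18S41 (others 34.5 to 69.6). Young WT liver W5L5277 held 60.0 of Amd1 (others 37.2 to 41.5) and 3.4 of Smox (others 6.52 to 7.91). Paox was at 33.1 in young WT liver W5L5005 (others 17.0 to 22.2) and at 8.85 in old WT muscle W18S42 (others 4.77 to 5.8), the library that also held 307 of Oaz2 (others 249 to 255) and 3014 of hepatocyte markers. Oaz1 was at 280 in old KO adipose library K18F27 (others 177 to 197).

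WT ageing differed between tissues by limma's test of the difference itself for 4 genes. The log2 difference of Oaz2 was -0.63 for adipose tissue minus muscle and -0.67 for liver minus muscle. That of Apip was -0.87 for adipose tissue minus liver and -0.88 for adipose tissue minus muscle. For adipose tissue minus muscle it was 1.0 for Atp13a2 and 0.67 for Eif5a2.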

How the results depend on the processing

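Scaling to library totals raised the members called between adipose tissue and liver from 4 to 8, where 71.7% and 82.6% of all genes were called. It turned the direction of Odc1 (0.73), Amd1 (0.72), Srm (0.59) and Sms (0.89) there, and of Azin1 between adipose tissue and muscle (0.14). It gave 1 member for the difference of WT ageing between adipose tissue and liver and 0 between liver and muscle. The shares of all genes called were 8.35% and 2.27%. With Y-linked libraries alone, Sms (0.07), Sat1 (-0.02) and Paox (-0.25) turned direction between adipose tissue and liver without a call. That setting called 1 member between KO and WT in young adipose tissue (3.68% of all genes). With age it called 0 in WT and 2 in KO adipose tissue (4.89% and 22.6%) and 1 in WT muscle (6.27%). It called 2 for WT ageing between adipose tissue and muscle (7.09%). For Odc1 with Myc in muscle it gave r = 0.677, against 0.0155 over all 20 libraries. A term for Xist libraries gave 0 with age in KO adipose tissue, 4 in WT muscle and 1 in KO muscle. The shares of all genes called were 13.1%, 14.9% and 1.37%. For ageing in KO adipose tissue the count was 0 without a filter and 3 by edgeR and by DESeq2. Of all genes these settings called 5.12%, 15.8% and 23.1%. Without the libraries with epididymis markers, 2 members were called with age in WT and 2 in KO adipose tissue (24.3% and 17.9% of all genes). In that setting WT ageing differed for 1 (adipose tissue and liver, 10.7%) and 3 (adipose tissue and muscle, 22.9%). Over all genes, DESeq2 called more than limma between KO and WT: 304 against 15 in young and 10 against 0 in old adipose tissue, 47 against 9 and 18 against 3 in liver, and 5 against 0 and 49 against 4 in muscle. edgeR called 9, 0, 6, 1, 0 and 6. With age DESeq2 called 2696 against 1539 (WT) and 3297 against 2033 (KO) in adipose tissue, 1459 against 929 and 778 against 386 in liver, and 1434 against 737 in KO muscle. For KO effects between tissues it called 101, 169 and 78 against 35, 0 and 0 (edgeR 2, 2 and 3), for their change with age in adipose tissue and muscle 6 and 1 against 0, and for WT ageing between adipose tissue and liver edgeR called 478 against 998. With Y-linked libraries alone limma called 534 against 15 between KO and WT in young adipose tissue, 1369 against 35 and 793 against 0 for KO effects between adipose tissue and liver or muscle, 709 against 1539 (WT) and 3277 against 2033 (KO) with age in adipose tissue, 414 against 929 in WT liver, and 855 against 2463 (WT) and 261 against 737 (KO) in muscle. With the Xist term it called 869 with age in WT adipose tissue, 182 in KO muscle and 34 between KO and WT in young adipose tissue. Without the libraries with epididymis markers it called 3497 with age in WT adipose tissue. WT ageing between adipose tissue and liver and between adipose tissue and muscle was called for 998 and 2386 genes, against 660 and 1204 with Y-linked libraries alone and 1735 and 3698 without the libraries with epididymis markers. The cause was not tested.

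Leaving out 1 library at a time, the counts ran from 0 to 1 for ageing in WT adipose tissue, KO liver (1 without W5L5005) and KO muscle (1 without W5S5277), from 0 to 2 in KO adipose tissue (2 without K18F28, K5F5116, K5F5218 or K5F5248), and from 1 to 2 in WT muscle (1 without W18S66). They ran from 1 to 2 for WT ageing between adipose tissue and muscle (2 without W5F5299) and between liver and muscle (2 without W5S5277). Paox between adipose tissue and liver ran from -0.03 to 0.21. All KO against WT counts within tissues stayed at 0 in these fits.

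Numbers in the codes recur across tissues at 5 months, and the labels do not say that they name an animal. Same-numbered pairs (28) had a median correlation of 0.124 (-0.141 to 0.377), 17 of them over 0.1, against -0.0304 for 164 other pairs. Each library was also set against each other tissue that held its number, which gave 56 combinations with most libraries entering more than once. In 29 of the 56 the best correlation was with the library's own number. The count expected without any link was not computed. With the replicate block the counts between tissues were 4, 10 and 9 for levels, 0, 0 and 0 for KO effects and 0, 1 and 1 for WT ageing, as without it. Within tissues no paired analysis was possible because the groups share no number. No library stood out for pancreas markers, so that alternative gave no value. Depth limits the lowest members most: Sms in liver rested on as few as 43 reads in a library and Smox on as few as 46.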
